A study of Homo sapiens with 10 samples.

Results

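The miRNA content of ES-2 cells depleted of IGF2BP1 was compared with that of ES-2 cells depleted of IGF2BP3, in 2 and 3 small RNA libraries. The miRNAs compared were the mature miRNAs whose mean was at least 10 normalised reads in both groups, after rows carrying the same miRNA name were summed. This rule kept 275 of 2576 mature miRNAs in the table, and 1196 of the 2576 had a read in any library. The 275 took 99.6% and 99.3% of the reads in the 2 siIGF2BP1 libraries and 99.9% in each of the 3 siIGF2BP3 libraries.

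ES-2 is an established human cell line derived from an ovarian cancer. The series holds 10 libraries of cells transfected with control siRNAs (siC, 2 libraries) or with siRNAs against IGF2BP1 (siIGF2BP1, 2), IGF2BP2 (siIGF2BP2, 3) or IGF2BP3 (siIGF2BP3, 3), grown in DMEM with serum. The labels give no siRNA dose or time after transfection. They also do not call the libraries of a group separate cultures, so every p-value below measures the spread between libraries, which may be technical. The table holds mature miRNAs only, so depletion of the IGF2BP mRNAs was not measured here.

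The 3 IGF2BP paralogs are RNA-binding proteins that associate with mRNAs and can shield them from decay, including decay directed by miRNAs. A miRNA is cut from a hairpin precursor by Drosha and Dicer, and 1 strand, or arm, is loaded into an Argonaute protein. The loaded miRNA finds its target mRNAs mainly through its seed, bases 2 to 8 from the 5′ end, so miRNAs with the same seed can share targets. By its title the series is about how IGF2BP1 affects the lowering of oncogenic factors by miRNAs, and the comparison asks whether the miRNAs themselves differ between depletion of IGF2BP1 and of IGF2BP3.

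The mature sequences of the miRNAs on which the results turn are given here because sequence shows which of them share a seed and which differ by only a few bases. They are RefSeq sequences of GRCh38.p14, printed 5′ to 3′ with the seed in capitals, and 238 of the 275 miRNAs had one. All 4 miR-181 members carry the seed ACAUUCA and were higher in siIGF2BP1.
miR-181a-5p: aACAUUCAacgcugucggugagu
miR-181b-5p: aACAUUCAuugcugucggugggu
miR-181c-5p: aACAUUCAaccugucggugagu
miR-181d-5p: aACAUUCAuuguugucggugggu
The miR-23 and miR-27 pairs have paralogs that share a seed and most other bases, and the b paralogs were higher in siIGF2BP1 while the a paralogs did not pass the test.
miR-27b-3p: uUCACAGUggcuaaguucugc
miR-27a-3p: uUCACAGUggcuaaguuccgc
miR-23b-3p: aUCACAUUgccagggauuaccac
miR-23a-3p: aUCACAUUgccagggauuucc
miR-424-5p has the seed of miR-15 and miR-16 and was higher in siIGF2BP1, while miR-15b-5p and miR-16-5p did not pass the test.
miR-424-5p: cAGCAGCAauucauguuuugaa
miR-15b-5p: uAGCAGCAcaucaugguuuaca
miR-16-5p: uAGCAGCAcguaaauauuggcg
The next sequences belong to other miRNAs that were higher in siIGF2BP1.
miR-210-3p: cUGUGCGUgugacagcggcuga
miR-10a-5p: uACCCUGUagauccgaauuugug
miR-21-5p: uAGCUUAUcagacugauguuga
miR-146a-5p: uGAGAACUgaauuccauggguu
miR-148a-3p: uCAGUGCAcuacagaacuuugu
The miRNAs that were lower in siIGF2BP1 include a pair with 1 seed, miR-221-3p and miR-222-3p.
miR-221-3p: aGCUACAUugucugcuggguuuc
miR-222-3p: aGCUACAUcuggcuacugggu
miR-31-5p: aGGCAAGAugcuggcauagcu
miR-155-5p: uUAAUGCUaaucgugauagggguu
miR-182-5p: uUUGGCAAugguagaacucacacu
miR-183-5p: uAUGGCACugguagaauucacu

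Of the 275 miRNAs, 39 were higher and 23 were lower in siIGF2BP1 than in siIGF2BP3. These 62 are 22.5% of the 275, beside 14.8% of all 889 miRNAs tested (12.3% higher and 2.59% lower; limma, adjusted p at 0.05 over the 889), and all 23 falls among the 889 were in this set. Log2 fold changes of the 62 ran from -2.34 for miR-31-3p to 3.24 for miR-218-5p, and 30 were at least 2-fold (26 higher, 4 lower). The median log2 fold change of the 275 was 0.09, beside 0.16 over all tested. The libraries of both groups overlapped for 123 of the 275, none of them among the 62. They were apart for the other 55.3%, beside 35.2% of the 889. On whole reads recovered from the values, edgeR called 40 higher and 49 lower. Unlike in limma, that is a smaller share of the 275 than the 37% it called of the 335 miRNAs it tested (22.1% higher, 14.9% lower). DESeq2 called 32 higher and 46 lower, a larger share than its 9.95% of 1196 (6.1% higher, 3.85% lower). The 1196 are all miRNAs with a read in any library, however rare. The 889, 335 and 1196 are thus unlike sets, and the background shares of the tools cannot be compared with each other. Among the 56 miRNAs with a mean of at least 1000 normalised reads, 10 were higher and 11 lower, and among the 129 with a mean under 100, 17 were higher and 9 lower.

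**Figure D1:**
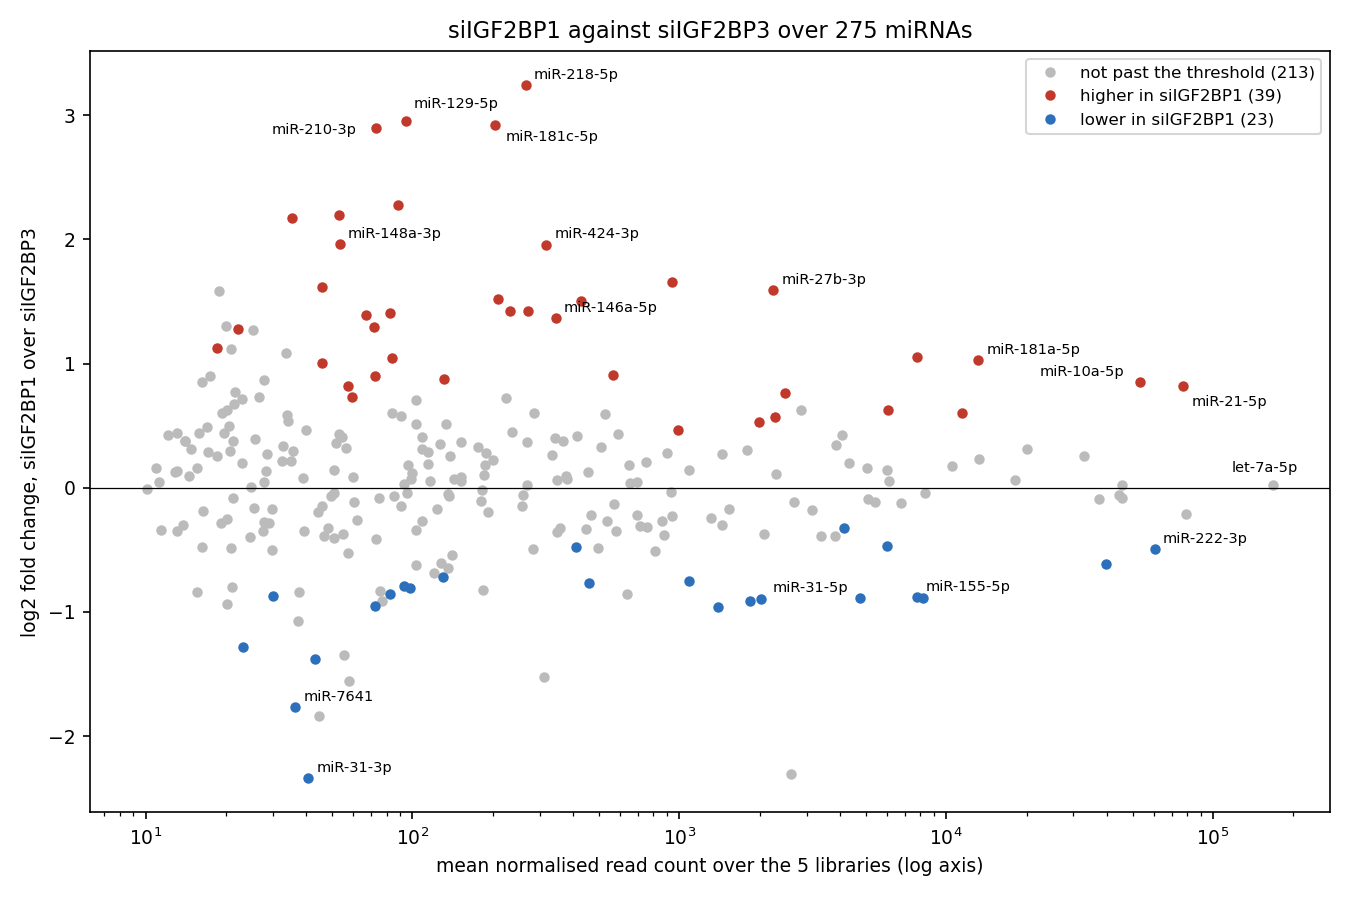
Log2 fold change of siIGF2BP1 over siIGF2BP3 (vertical axis) against the mean normalised read count over the 5 libraries (horizontal log axis), 1 point for each of 275 miRNAs, red for the 39 that were higher, blue for the 23 that were lower and grey for the rest. The largest rises lie at means under 1000, while miR-10a-5p (0.85), miR-21-5p (0.82) and miR-222-3p (-0.50) show smaller differences at high levels.

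The balance of rises and falls moved with the scaling of the libraries. It was 39 to 23 with the deposited scaling, 32 to 34 after TMM rescaling, 33 to 33 after median-of-ratios rescaling, 35 to 31 after rescaling to library totals, and 14 to 136 after upper-quartile rescaling. Upper-quartile rescaling moved the median of the 275 from 0.09 to -0.71 and that of all tested to -0.30, and TMM rescaling moved the former to -0.04. The upper quartile lies among rare miRNAs, at 13.1 and 15.9 normalised reads in siIGF2BP1 and at 7.98 to 8.32 in siIGF2BP3. In total 12 rises and 9 falls passed under all 15 processing settings tried and with each library left out. The rises were miR-210-3p, miR-424-3p, miR-424-5p, miR-27b-3p, miR-27b-5p, miR-23b-3p, miR-181a-3p, miR-181a-2-3p, miR-181c-5p, miR-146a-5p, miR-218-5p and miR-224-5p. The falls were miR-31-3p, miR-31-5p, miR-155-5p, miR-182-5p, miR-183-5p, miR-222-3p, miR-29a-3p, miR-125b-1-3p and miR-3689f.

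The groups differ in more than the siRNA. The siC and siIGF2BP1 samples carry 1 source name in the labels and the siIGF2BP2 and siIGF2BP3 samples another, here called library blocks, so block and knockdown cannot be told apart in siIGF2BP1 against siIGF2BP3. Totals were 1269743 and 1096008 reads in siIGF2BP1 and 462724, 815312 and 769124 in siIGF2BP3. The 64 miRNAs of the imprinted 14q32 cluster, none of them among the 275, took 0.176% and 0.267% of the reads in siIGF2BP1 and 0.00110% to 0.00195% in siIGF2BP3, with 58 and 57 of them read against 6 or 7. They took 0.447% and 0.206% in siC and 0.00115% to 0.00182% in siIGF2BP2, where 4 to 6 of them were read. Blood cell miRNAs took 0.0439% and 0.0681% against 0.0557% to 0.163%, muscle, liver and neural miRNAs 0.148% and 0.236% against 0.143% to 0.150%, and the epithelial miR-200 family at most 0.00108%. Whether these differences have a part in the results below was not tested. The main results below are therefore set beside siC against siIGF2BP2 or beside the double difference. The former contrast crosses the same blocks and shares none of the 5 libraries. The latter is siIGF2BP1 over siC relative to siIGF2BP3 over siIGF2BP2, in which an additive block difference cancels. Any effect of IGF2BP2 depletion enters both, so neither is a measure of the block alone or of the compared knockdowns alone.

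miR-210-3p, the miRNA best known for its induction by hypoxia, was higher in siIGF2BP1 than in each other group. It stood at 144 and 163 normalised reads in siIGF2BP1 and at 19.96, 18.9 and 20.2 in siIGF2BP3, while siC had 24.7 and 23.95 and siIGF2BP2 had 28.3, 28.6 and 19.0. Both siIGF2BP1 libraries were above every other library of the series, and the siIGF2BP3 libraries lay close to the control. The means were 153 ± 13.6 (SD, n = 2) and 19.7 ± 0.680 (SD, n = 3), a 7.79-fold difference with a log2 fold change of 2.90 ± 0.26 (SE, adjusted p = 6.93e-06, limma). The difference between siC and siIGF2BP2 was -0.03, and the double difference was 2.93 ± 0.36 (adjusted p = 0.00037). Its gene MIR210 lies in an intron of the long noncoding RNA gene MIR210HG, with the mature sequence at chr11:568112-568133 on the minus strand.

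Both arms of miR-424, a cell cycle regulating relative of miR-15 and miR-16 encoded on the X chromosome, were higher in siIGF2BP1. miR-424-3p had 598 and 546 normalised reads against 162, 125 and 155, and miR-424-5p had 389 and 355 against 130, 123 and 165. The siC libraries resembled siIGF2BP3 in level, at 129 and 186 for the 3p arm and 124 and 144 for the 5p arm, and siIGF2BP2 was higher than both at 235 to 271 and 163 to 235. Log2 fold changes were 1.96 ± 0.19 for the 3p arm (adjusted p = 9.43e-06) and 1.42 ± 0.20 for the 5p arm (adjusted p = 0.000254). Since siC was lower than siIGF2BP2 for the 3p arm (-0.71, adjusted p = 0.0326), the double differences were larger, 2.67 and 2.06 (adjusted p = 0.000103 and 0.000633). The mature arms lie at chrX:134546644-134546664 and chrX:134546680-134546701 on the minus strand, outside any annotated host gene.

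Of the 7 measured miRNAs of the miR-424 and miR-503 cluster these 2 passed the test and 5 did not, with a median of 1.12 over the 7. miR-503-5p, which shares the miR-424 precursor transcript, had 32.1 and 29.1 normalised reads against 22.0, 11.8 and 9.51, without overlap (log2 fold change 1.12, adjusted p = 0.074). miR-542-3p and miR-450a-5p had log2 fold changes of -0.40 (95% interval -1.42 to 0.62) and 0.01 (-0.84 to 0.86). The seed relatives of miR-424-5p did not show its pattern. miR-16-5p, at 5163 and 4676 against 5436, 5412 and 4862, gave -0.09 (-0.31 to 0.14), and miR-15b-5p, at 304 and 291 against 433, 380 and 334, gave -0.35 (-0.76 to 0.05). miR-15b-3p, the other arm of that hairpin, was lower in siIGF2BP1 (-0.79, adjusted p = 0.0176), a call that was lost without siIGF2BP1 replicate 1 (adjusted p = 0.121) and without siIGF2BP3 replicate 1 or 3 (adjusted p = 0.0522 and 0.0603).

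miR-27b and miR-23b come from 1 cluster in introns of C9orf3 on chromosome 9 and miR-27 is known for its role in lipid metabolism. miR-27b-3p had 3966 and 3509 normalised reads in siIGF2BP1 against 1062, 1271 and 1403 in siIGF2BP3, a 3.00-fold difference (log2 fold change 1.59 ± 0.13, adjusted p = 3.91e-06, the smallest of the 275). The other arm, miR-27b-5p, had 174 and 164 against 23.9, 40.2 and 40.4 (2.28 ± 0.28, adjusted p = 6.72e-05). miR-23b-3p had 104 and 97.0 against 19.96, 23.7 and 20.2 (2.19 ± 0.25, adjusted p = 3.24e-05). For all 3 the libraries of both groups were far apart, and siC was the second highest of the 4 groups.

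The contrast of siC with siIGF2BP2 moved the same way for these 3 miRNAs. siC exceeded siIGF2BP2 by 0.52 for miR-27b-3p, 1.01 for miR-27b-5p and 1.0 for miR-23b-3p (adjusted p = 0.0228, 0.0381 and 0.0227). The double difference was 1.07 ± 0.18 for miR-27b-3p (adjusted p = 0.0036), and those of miR-27b-5p (1.27, adjusted p = 0.119) and miR-23b-3p (1.19, adjusted p = 0.0882) did not pass. The chromosome 19 paralogs, which differ from them at only a few bases, gave other values. miR-27a-3p had 1174 and 1140 against 932, 1061 and 1152 (0.15, 95% interval -0.12 to 0.42), and miR-23a-3p had 458 and 390 against 496.9, 547 and 436 (-0.22, -0.53 to 0.09). Of the 8 measured arms of the miR-23/27/24 clusters, 3 were higher and 0 lower, with a median of -0.00. How the authors placed reads shared by such close sequences is not stated.

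The miR-181 family, known from lymphocyte development, was higher in siIGF2BP1 for 4 of 4 members, with a median log2 fold change of 1.24. The 2 abundant members were lowest in siIGF2BP3, and miR-181b-5p was also highest in siIGF2BP1. miR-181a-5p had 16747 and 21341 normalised reads in siIGF2BP1, 16732 and 15681 in siC, 20967, 17449 and 19596 in siIGF2BP2, and 9421, 9981 and 8529 in siIGF2BP3. miR-181b-5p had 10612 and 12026 in siIGF2BP1 against 5263, 6002 and 5125 in siIGF2BP3, with 8479 to 9585 in the other 5 libraries. For both, the 3 siIGF2BP3 libraries were the lowest of the 10, with log2 fold changes of 1.02 ± 0.12 and 1.05 ± 0.10 (adjusted p = 4.98e-05 and 1.11e-05). Against siIGF2BP2, siIGF2BP3 was lower by log2 values of -1.05 and -0.73 (adjusted p = 0.000107 and 0.000636), while siIGF2BP1 differed from siC by 0.22 and 0.40 (adjusted p = 0.532 and 0.0877). After upper-quartile rescaling neither abundant member passed, though the direction of all 4 was kept.

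The same family also held members that were higher in siC than in siIGF2BP2 as well. Block and knockdown cannot be told apart in either contrast. miR-181c-5p had 386 and 465 normalised reads in siIGF2BP1 and 407 and 1336 in siC, but 83.5, 103 and 84.6 in siIGF2BP2 and 47.9, 52.1 and 66.6 in siIGF2BP3. Its log2 fold change of 2.92 ± 0.37 (adjusted p = 8.67e-05) stood beside 3.02 for siC over siIGF2BP2 (adjusted p = 0.000107) and a double difference of -0.10. miR-181d-5p, at 363 and 508 against 140, 181 and 161, gave 1.42 (adjusted p = 0.00171) beside 0.96 for siC over siIGF2BP2, and it lost the call without siIGF2BP1 replicate 2 (adjusted p = 0.0750). These 2 come from 1 intron of NANOS3 on chromosome 19, whereas miR-181a-5p and miR-181b-5p come from MIR181A1HG on chromosome 1 and MIR181A2HG on chromosome 9. The passenger arms of the latter loci were called with double differences: miR-181a-3p had 1460 and 1733 against 521, 529 and 461 (1.66, double difference 1.66), and miR-181a-2-3p had 608 and 788 against 213.5, 286 and 238 (1.5, double difference 2.14).

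miR-10a-5p and miR-21-5p carried the most reads among the called rises. miR-10a-5p had 73100 and 71828 normalised reads against 38203, 42457 and 39927, with 44432 and 47730 in siC and 50465 to 55346 in siIGF2BP2. Its gene lies in the HOXB cluster, within an intron of HOXB3 and overlapping an exon of HOXB4. miR-21-5p, an oncogenic miRNA that represses PDCD4 and whose gene overlaps an exon of VMP1, had 104454 and 104483 against 60131, 55536 and 61734, with 84161 and 85862 in siC and 86807 to 99613 in siIGF2BP2. For both, siIGF2BP1 held the highest and siIGF2BP3 the lowest libraries of the series. Log2 fold changes were 0.85 ± 0.08 and 0.82 ± 0.09 (adjusted p = 1.11e-05 and 1.91e-05), with double differences of 1.03 and 0.98 (adjusted p = 0.000264 and 0.00037). Neither passed after upper-quartile rescaling. miR-10b-5p, a close relative from the HOXD cluster, did not pass, at 20985 and 24553 against 17302, 19798 and 17870 (0.31, 95% interval -0.02 to 0.64).

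miR-146a-5p, which is induced by NF-kB and represses TRAF6 and IRAK1, had 577 and 512 normalised reads in siIGF2BP1 and 228, 202 and 201 in siIGF2BP3. The other 2 groups lay on opposite sides of their block partners: siC had 416 and 422, and siIGF2BP2 had 996, 993 and 939, the highest of the series. The log2 fold change was 1.37 ± 0.13 (adjusted p = 8.61e-06), siC over siIGF2BP2 was -1.22 (adjusted p = 2.41e-05), and the double difference was 2.59 ± 0.18 (adjusted p = 3.72e-06, the smallest of the 275 in that contrast). The parts of that double difference were -2.21 for siIGF2BP3 over siIGF2BP2 (adjusted p = 1.05e-07) and 0.38 for siIGF2BP1 over siC (adjusted p = 0.192). Its seed relative miR-146b-5p had 288 and 276 against 196, 211 and 213 and did not pass (0.45, adjusted p = 0.07).

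**Figure D2:**
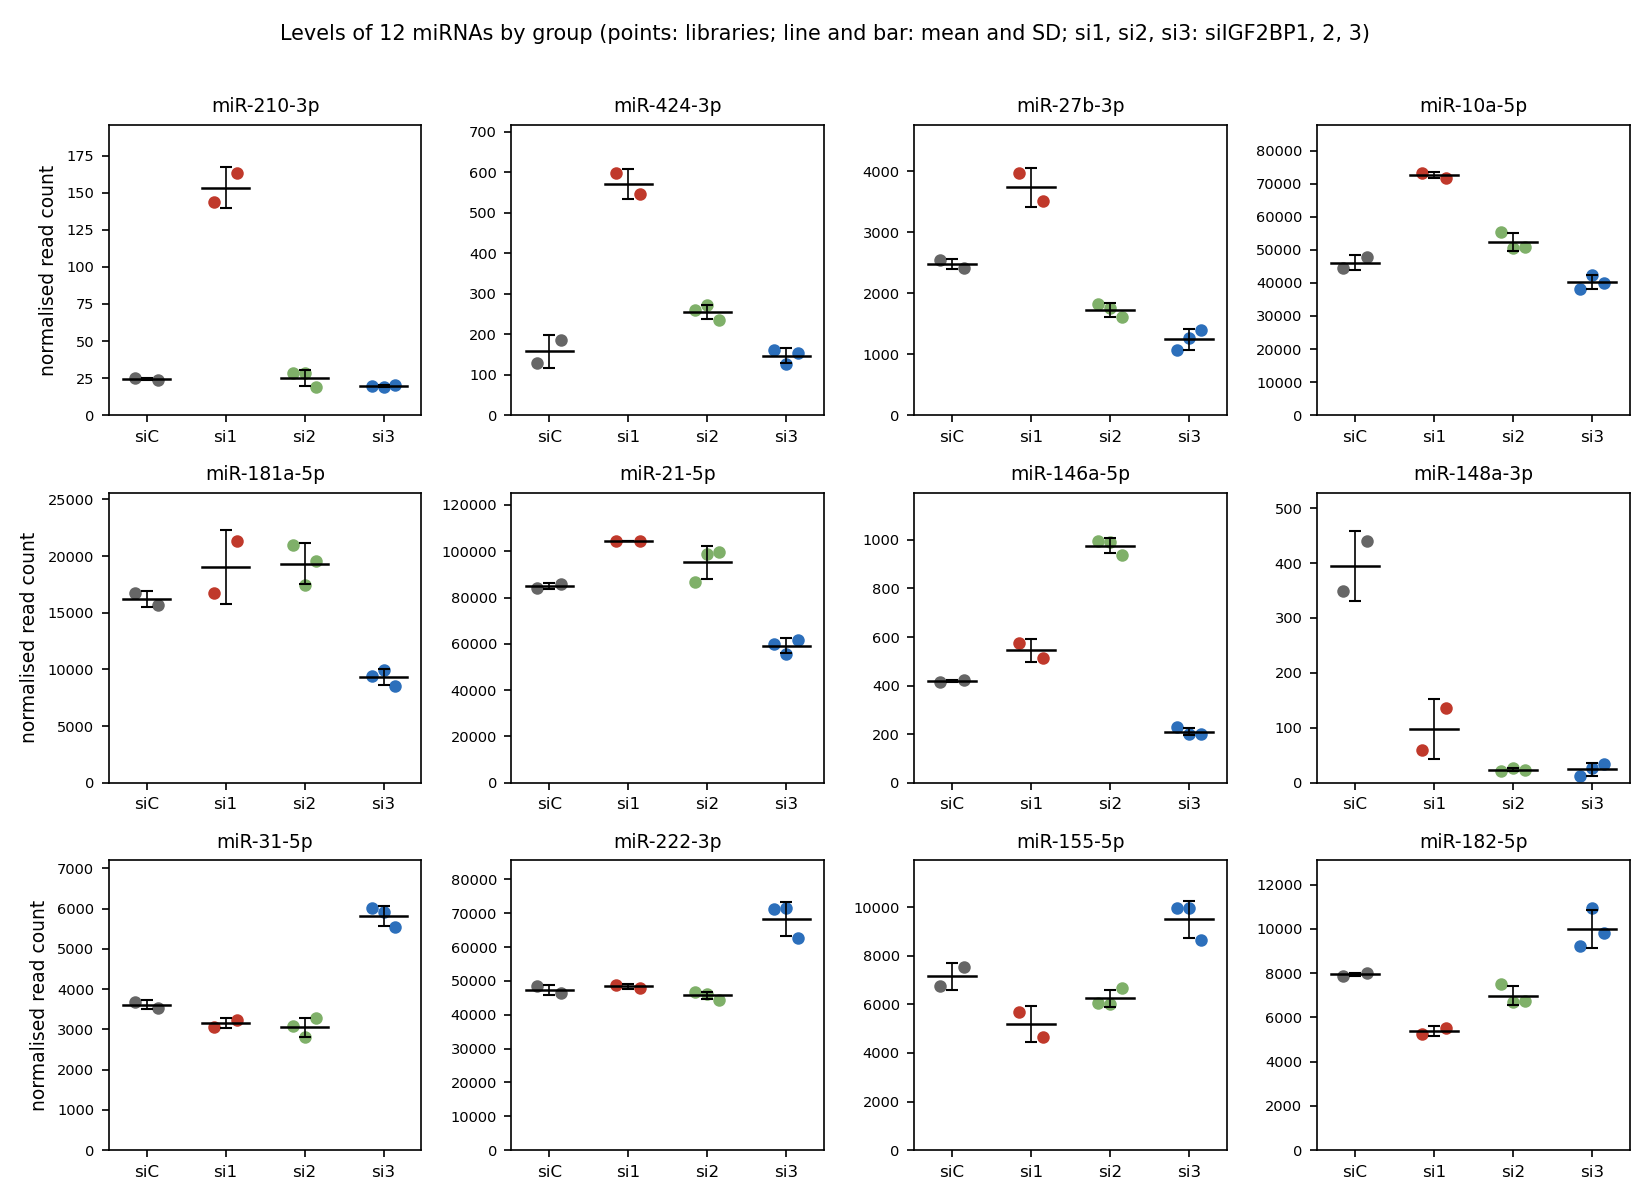
Normalised read counts (vertical axes, from 0) of 12 miRNAs in the 4 groups, with 1 point for each library and the group mean ± SD. miR-210-3p and miR-424-3p are high only in the 2 siIGF2BP1 libraries of the 10, miR-181a-5p is lowest and miR-31-5p, miR-222-3p, miR-155-5p and miR-182-5p are highest in the 3 siIGF2BP3 libraries, and miR-148a-3p is highest in siC.

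Further rises were seen in smaller groups. miR-224-5p and miR-452-5p, which share the GABRE locus on the X chromosome, were both higher (2 of 2): miR-224-5p had 366 and 324 against 112, 121 and 125 (1.52, adjusted p = 3.24e-05), and miR-452-5p had 157 and 108 against 59.9, 42.6 and 45.2 (1.41, adjusted p = 0.000995). siC over siIGF2BP2 was -0.01 and 0.47, and of the pair miR-224-5p passed in the double difference (1.53, adjusted p = 0.00181). miR-26a-5p, a repressor of EZH2, had 14690 and 14183 against 9028, 10750 and 8855 (0.60, adjusted p = 0.000786, turning to -0.21 after upper-quartile rescaling), while miR-26b-5p with the same seed had 1283 and 1079 against 1421, 1505 and 1268 (-0.24, adjusted p = 0.306). miR-132-3p, a CREB-responsive miRNA, had 102 and 111 against 35.9, 53.2 and 33.3 (1.39, adjusted p = 0.00321), a call lost without siIGF2BP1 replicate 2 (adjusted p = 0.0567). siC over siIGF2BP2 was -0.08 for miR-26a-5p and -0.14 for miR-132-3p, and their double differences were 0.68 and 1.53 (adjusted p = 0.0151 and 0.0458).

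The 2 largest rises came with a wide spread inside siIGF2BP1. miR-218-5p, encoded in introns of SLIT2 and SLIT3, had 308 and 858 normalised reads against 61.9, 58.0 and 42.8 (3.24 ± 0.33, adjusted p = 1.72e-05), and it ranged from 2.50 to 3.98 as each library was left out. miR-129-5p, a miRNA of neural tissue, had 61.1 and 353 against 11.97, 26.0 and 19.0 (2.95 ± 0.55, adjusted p = 0.00194), and it fell to 1.70 without siIGF2BP1 replicate 2 and reached 4.21 without replicate 1. Of the 65 miRNAs that reached a mean of 10 in siIGF2BP1 alone, 43 were higher in that replicate 2 than in replicate 1. These 65 were chosen by their siIGF2BP1 mean, and the same count was not made over all tested miRNAs. The miR-129-5p call was lost in a fit to the 5 libraries alone (adjusted p = 0.107). siC exceeded siIGF2BP2 by 1.07 and 0.97 for miR-218-5p and miR-129-5p (adjusted p = 0.0672 and 0.417), and the double differences were 2.17 (adjusted p = 0.0208) and 1.98 (adjusted p = 0.242).

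Among the 23 miRNAs lower in siIGF2BP1, 4 changed by at least 2-fold, and 11 had a mean of at least 1000 normalised reads. miR-31 was lower in both arms. miR-31-5p, a miRNA studied in metastasis and encoded in an intron of MIR31HG on chromosome 9, had 3062 and 3236 normalised reads against 6005, 5919 and 5544, and miR-31-3p had 8.84 and 12.3 against 87.8, 34.3 and 60.7. For the 5p arm siC (3686 and 3531) and siIGF2BP2 (2810 to 3274) lay near siIGF2BP1, and the 3 siIGF2BP3 libraries were the highest of the series. Log2 fold changes were -0.89 ± 0.10 and -2.34 ± 0.40 (adjusted p = 3.24e-05 and 0.00108), siC over siIGF2BP2 was 0.24 and 0.09, and the double differences were -1.13 and -2.42 (adjusted p = 0.00037 and 0.0296).

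miR-221 and miR-222, growth-promoting miRNAs that repress the cell cycle inhibitor CDKN1B (p27), are made from 1 transcript, MIR222HG on the X chromosome. miR-222-3p had 48934 and 47897 normalised reads against 71233, 71462 and 62579, with 44526 to 48465 in the other 5 libraries. miR-221-3p had 29372 and 30595 against 49099, 49702 and 39357, with 35581 to 46660 in the others, so here siIGF2BP1 was the lowest group. Of the 4 arms of this cluster 3 were lower and 0 higher, with a median of -0.55: miR-222-3p (-0.50, adjusted p = 0.000978), miR-221-3p (-0.61, adjusted p = 0.00339) and miR-221-5p (-0.96, adjusted p = 0.00188). The call of miR-221-3p was lost without siIGF2BP1 replicate 1 or replicate 2 (adjusted p = 0.0695 and 0.0509) and that of miR-221-5p without replicate 2 (adjusted p = 0.0568). Double differences passed for miR-222-3p (-0.55, adjusted p = 0.0203) and miR-221-5p (-1.17, adjusted p = 0.0203) and not for miR-221-3p (-0.45, adjusted p = 0.236).

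miR-182 and miR-183 belong to a cluster first known from sensory organs and raised in many carcinomas. miR-182-5p had 5242 and 5532 normalised reads against 9250, 10932 and 9814, and miR-183-5p had 783 and 755 against 1257, 1336 and 1289. Their siC levels, 7892 and 8006 and 1199 and 1252, lay above both siIGF2BP1 and siIGF2BP2. Log2 fold changes were -0.89 ± 0.10 and -0.75 ± 0.11 (adjusted p = 3.24e-05 and 0.000353), and siIGF2BP1 was also lower than siC in its own block (-0.56 and -0.67, adjusted p = 0.0152 and 0.00907). siC over siIGF2BP2 ran the other way for miR-183-5p (0.41, adjusted p = 0.0378), and the double differences were -1.08 and -1.16 (adjusted p = 0.000436 and 0.000516). The third member, miR-96-5p, had 12.1 and 12.3 against 29.9, 15.4 and 30.9 and did not pass (-0.94, adjusted p = 0.161).

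miR-155-5p, an immune and oncogenic miRNA, had 5699 and 4664 normalised reads against 9950, 9947 and 8633, with 6771 and 7547 in siC and 6016 to 6663 in siIGF2BP2. The log2 fold change was -0.88 ± 0.11 (adjusted p = 0.000109) and the double difference -1.08 (adjusted p = 0.00127), with siIGF2BP3 holding the 3 highest libraries of the series. miR-29a-3p, a repressor of collagen mRNAs, had 4867 and 4919 against 6298, 7153 and 6876 (-0.47, adjusted p = 0.00383), while its double difference of -0.40 did not pass (adjusted p = 0.159). In limma it was the 1 of 3 miR-29 members that passed. miR-29b-3p had 140 and 112 against 257, 219 and 834, a wide spread in siIGF2BP3 (-1.52, adjusted p = 0.0545 in limma, 0.0216 in edgeR and 0.00135 in DESeq2), and miR-29c-3p gave 0.21 (adjusted p = 0.741). miR-125b-1-3p, the lesser arm of a miR-125b hairpin, had 1388 and 1270 against 2223, 2701 and 2526 (-0.90, adjusted p = 0.000109), beside -0.19 for siC over siIGF2BP2 and a double difference of -0.71 (adjusted p = 0.0296). miR-7641, an entry whose sequence overlaps other small RNA, had 9.64 and 19.4 against 51.9, 34.3 and 66.6 (-1.77, adjusted p = 0.00278), beside -0.68 for siC over siIGF2BP2 and a double difference of -1.09 (adjusted p = 0.332), and it lost its call without siIGF2BP1 replicate 1 (adjusted p = 0.0568).

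Other calls with libraries well apart came from single miRNAs. miR-345-5p had 765 and 809 normalised reads in siIGF2BP1 against 419, 435 and 400 in siIGF2BP3, with 531 to 637 in the other 5 libraries (0.91 ± 0.12, adjusted p = 0.000184, double difference 1.08). miR-152-5p, the lesser arm of a hairpin whose other arm has the miR-148 seed, had 104 and 119 against 33.9, 56.8 and 46.4 (1.29 ± 0.24, adjusted p = 0.00208, double difference 1.97). miR-181c-3p, the other arm of miR-181c-5p, had 77.1 and 77.6 against 22.0, 24.8 and 27.4, with 54.4 and 74.5 in siC (1.61 ± 0.30, adjusted p = 0.00182, double difference 0.92, adjusted p = 0.336). Among the falls, miR-3689f had 20.9 and 22.0 against 63.9, 58.0 and 51.1, with 38.6 to 47.7 in the other groups (-1.38 ± 0.23, adjusted p = 0.000842, double difference -1.33).

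Many calls were lost when 1 of the 5 libraries was left out, large ones such as miR-3609 and miR-148a-3p among them. Of the 62 calls, 23 rises and 9 falls passed with any 1 of the 5 libraries left out, and 42 passed in a fit to the 5 libraries alone. Those lost in the latter fit include miR-15b-3p, miR-193b-3p, miR-221-3p, miR-221-5p, miR-320b, miR-454-3p, miR-3609 and miR-7641. Of the 12 largest falls, miR-100-3p, miR-29b-1-5p, miR-577 and miR-590-3p passed in 12, 13, 12 and 9 of 15 processing settings. Each was also lost without single siIGF2BP3 libraries. These were replicate 1 or 3 for miR-100-3p and miR-590-3p, replicate 1 or 2 for miR-29b-1-5p, and any replicate for miR-577. miR-193b-3p had 110 and 132 against 43.9, 75.7 and 58.3 (1.05, adjusted p = 0.0158), and it did not pass without siIGF2BP1 replicate 1 or 2 (adjusted p = 0.0695 and 0.173) or without siIGF2BP3 replicate 1 (adjusted p = 0.0599). miR-454-3p, of the miR-130 seed family, had 357 and 286 against 637, 577 and 440 (-0.77, adjusted p = 0.0167), and it did not pass without siIGF2BP1 replicate 2 (adjusted p = 0.220) or siIGF2BP3 replicate 1 or 2 (adjusted p = 0.0787 and 0.0560). miR-532-5p had 77.9 and 57.3 against 122, 116 and 115 (-0.81, adjusted p = 0.0166), a call lost without siIGF2BP1 replicate 2 (adjusted p = 0.157). The libraries of both groups were still apart for these 3 miRNAs. siC over siIGF2BP2 was -0.61, -0.07 and 0.10 for miR-193b-3p, miR-454-3p and miR-532-5p, and of their double differences that of miR-193b-3p passed (1.65, adjusted p = 0.0247) and those of the other two did not (-0.69 and -0.91, adjusted p = 0.242 and 0.130).

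**Figure D3:**
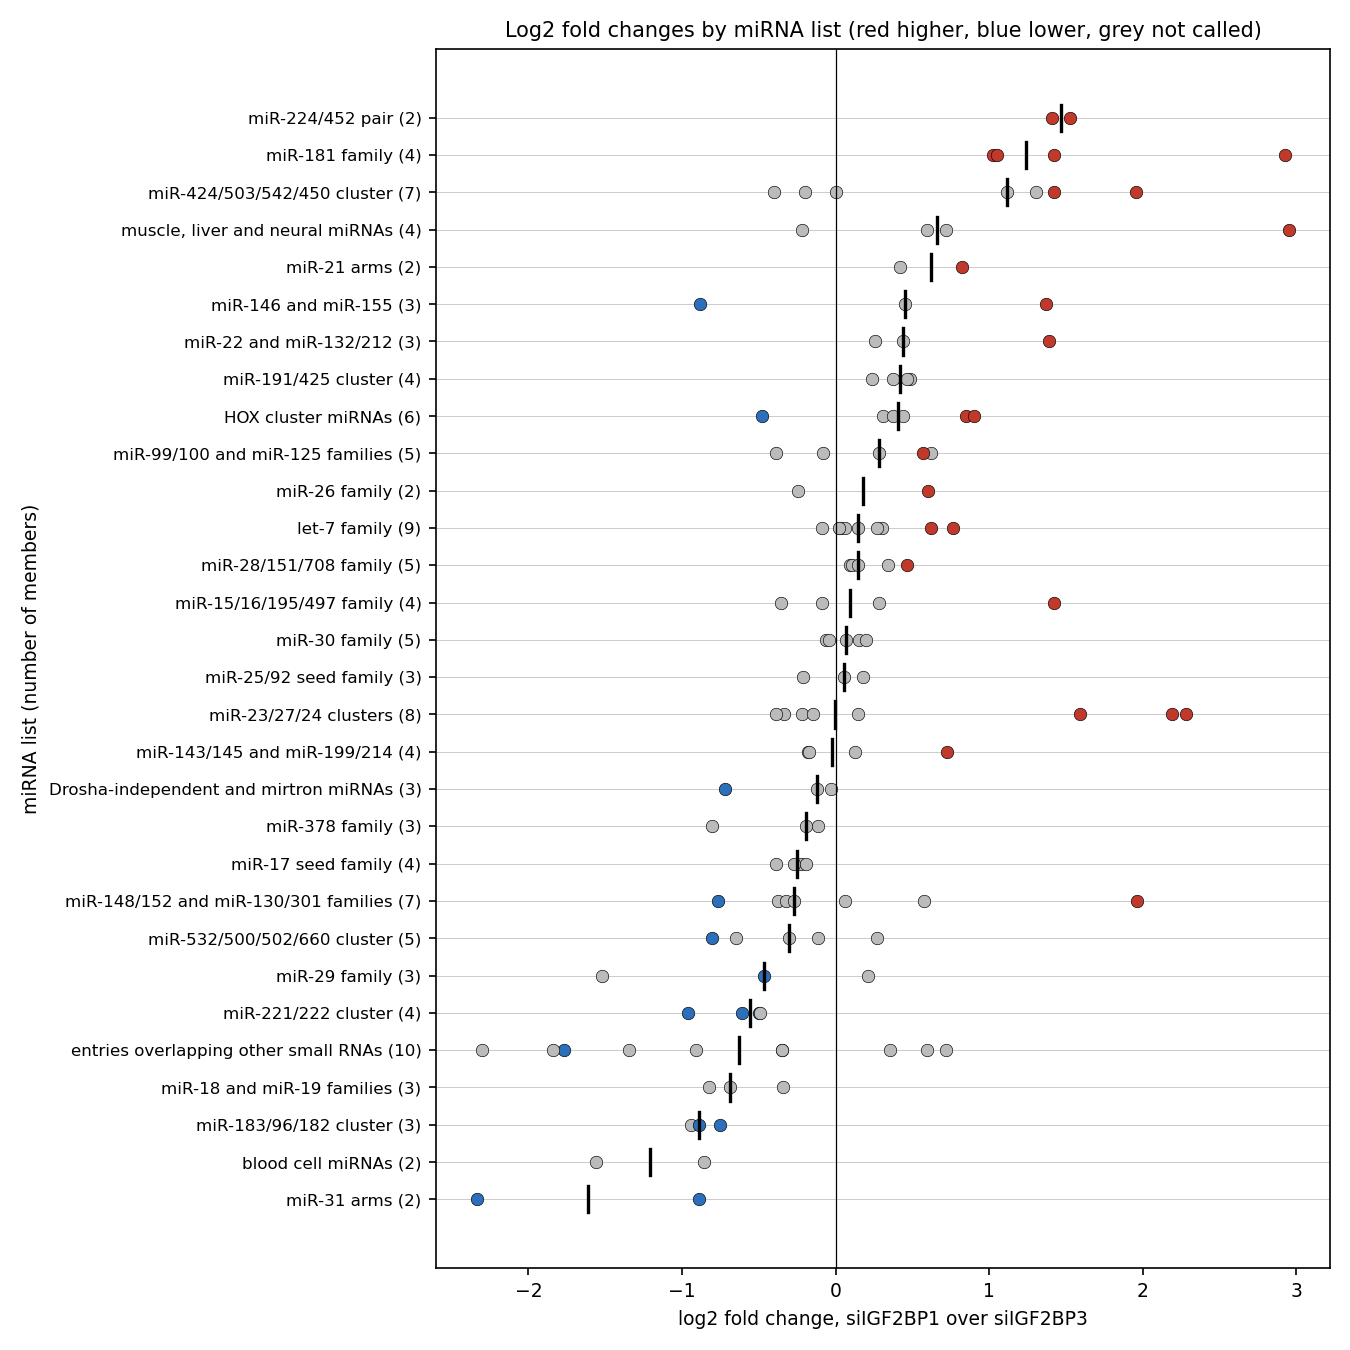
Log2 fold changes of siIGF2BP1 over siIGF2BP3 (horizontal axis) for the miRNAs of each list with at least 2 among the 275, with 1 row per list, 1 point per miRNA and a black bar at the list's median. The miR-181 (median 1.24) and miR-224 with miR-452 (1.46) lists hold only rises, the miR-31 (-1.61) list only falls, and the miR-23/27/24 list holds 3 rises and 5 points near 0.

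The remaining lists are given here with their limma calls. In the HOX cluster list 2 of 6 were higher and 1 lower (median 0.40), the second rise being miR-615-3p at 124 and 78.5 normalised reads against 59.9, 40.2 and 59.5 (0.90, adjusted p = 0.0419), which was lost without siIGF2BP1 replicate 1 (adjusted p = 0.377) or siIGF2BP3 replicate 1 or 2 (adjusted p = 0.0663 and 0.130). The miR-615-3p call passed in 4 of 15 processing settings and was lost under every rescaling, with a pseudocount of 0.1, with no filter, in DESeq2, in the fit to the 5 libraries, and without either siC library. In the miR-99/100 and miR-125 families 1 of 5 was higher (median 0.29): miR-125a-5p had 2992 and 2676 against 1768, 2043 and 1929 (0.57, adjusted p = 0.00331), which turned to -0.25 after upper-quartile rescaling and was lost without siIGF2BP1 replicate 1 (adjusted p = 0.0506). In the family of miR-28 and miR-151a 1 of 5 was higher (median 0.14), miR-151a-5p at 1241 and 1132 against 880, 944 and 764 (0.46, adjusted p = 0.0283), which turned to -0.35 after upper-quartile rescaling and was lost without siIGF2BP1 replicate 1 or 2 (adjusted p = 0.193 and 0.0766) or siIGF2BP3 replicate 3 or 1 (adjusted p = 0.0870 and 0.0579). That call passed in 7 of 15 processing settings and was lost under each rescaling but that to library totals, in both edgeR fits, in DESeq2 (0 of the 5 family members called by either tool) and in the fit to the 5 libraries. siC over siIGF2BP2 was -0.26 for miR-615-3p, -0.20 for miR-125a-5p and -0.18 for miR-151a-5p, and of these the double difference passed for miR-125a-5p (0.77, adjusted p = 0.0165) and not for miR-615-3p (1.16, adjusted p = 0.159) or miR-151a-5p (0.64, adjusted p = 0.0855). In the list of miRNAs made without Drosha or from introns, 1 of 3 was lower (median -0.12), miR-320b at 92.4 and 91.7 against 118, 190.5 and 157 (-0.72, adjusted p = 0.0382), which was lost without siIGF2BP1 replicate 1 or 2 (adjusted p = 0.174 and 0.181) or siIGF2BP3 replicate 2 or 3 (adjusted p = 0.122 and 0.0865). Its siC over siIGF2BP2 difference was 0.02 and its double difference -0.74 (adjusted p = 0.259).

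Among entries that overlap other small RNAs, 1 of 10 was lower, miR-7641, with a median of -0.63. The largest difference there was that of miR-1291, at 420 and 1305 against 5259, 3290 and 2822, which did not pass (-2.30, adjusted p = 0.113). Of the muscle, liver and neural miRNAs 1 of 4 was higher (miR-129-5p, median 0.66), and of the blood cell miRNAs 0 of 2 passed in limma, though both had an unadjusted p under 0.05 and 2 passed by edgeR and by DESeq2 (median -1.21), with miR-142-3p at 18.5 and 22.9 against 41.9, 33.1 and 174 (-1.56, adjusted p = 0.086). The list of miR-143, miR-145, miR-199 and miR-214 held 1 rise among 4 (median -0.02), and the miR-148 and miR-130 families 1 rise and 1 fall among 7 in limma (median -0.27), where 6 of the 7 had an unadjusted p under 0.05 and edgeR and DESeq2 each called 5. The miR-22, miR-132 and miR-212 list held 1 rise among 3 (median 0.44), the miR-532 cluster 1 fall among 5 (median -0.30), and the miR-26 family 1 rise of 2. Of 4 arms of the miR-191 cluster (median 0.42), 3 of the miR-378 family (median -0.19) and 1 of the miR-103 family (-0.13), 0 passed in limma, edgeR or DESeq2, with an unadjusted p under 0.05 for 2 of the miR-191 arms. The miR-200, miR-34 and 14q32 lists had 0 members among the 275. These lists were counted against medians of 0.09 over the 275 and 0.16 over all tested.

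Much of the most abundant miRNA content showed no difference that passed. let-7a-5p, the most abundant miRNA, had 188859 and 151964 normalised reads against 180235, 173156 and 147602, with overlapping libraries (0.03, 95% interval -0.23 to 0.28). The let-7 family represses growth-promoting mRNAs, IGF2BP mRNAs among them. Of its 9 members 2 were higher and 0 lower with a median of 0.15, while after upper-quartile rescaling all 9 lay below 0 (-0.90 for let-7f-5p to -0.05 for let-7d-5p) and neither rise passed. let-7d-5p had 3524 and 3069 against 2075, 2056 and 1694 (0.77, adjusted p = 0.000842), and let-7e-5p had 8287 and 7032 against 5352, 5200 and 4382 (0.62, adjusted p = 0.00354). siC over siIGF2BP2 was 0.35 and -0.16, and the double difference passed for let-7e-5p (0.78, adjusted p = 0.0281) and not for let-7d-5p (0.42, adjusted p = 0.295). The let-7e-5p call was lost without siIGF2BP1 replicate 1 (adjusted p = 0.0850). let-7i-5p gave 0.02 (-0.15 to 0.20), miR-92a-3p of the miR-17-92 cluster -0.21 (-0.44 to 0.02), and miR-30a-5p -0.06 (-0.24 to 0.12). miR-100-5p spread widely within groups, from 33145 to 55185 and from 36860 to 59489, and gave -0.08 (-0.60 to 0.43). In limma 0 of the 5 miR-30 miRNAs passed (0 with an unadjusted p under 0.05, 0 by edgeR, 0 by DESeq2; -0.06 to 0.20). It called 0 of 4 with the miR-17 seed (1 unadjusted, 1 by edgeR, 1 by DESeq2; -0.39 to -0.19), 0 of 3 with the miR-25 seed (0, 1 and 1; -0.21 to 0.18) and 0 of 3 of miR-18 and miR-19 (1, 1 and 1; -0.82 to -0.34).

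Shares of reads do not depend on the scaling of the libraries. The miR-181 family took 2.76% and 3.55% of the reads in siIGF2BP1 and 1.61%, 1.68% and 1.52% in siIGF2BP3. The cluster of miR-221 and miR-222 took 7.81% and 8.22% against 13.2%, 12.7% and 11.4%. Both sets of libraries were fully apart, and each two-sided exact permutation test gave p = 0.2, the smallest that 2 against 3 libraries allow (0.333 after adjustment over 5 shares). The let-7 share was 29.4% ± 2.17 (SD, n = 2) against 30.4% ± 2.25 (SD, n = 3), with an exact permutation p of 0.8, and the 10 most abundant miRNAs took 67.2% ± 1.69 (SD, n = 2) against 68.5% ± 0.557 (SD, n = 3), with an exact permutation p of 0.6.

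The other contrast across the same blocks, which also holds IGF2BP2 depletion, called fewer of the 275 miRNAs. siC against siIGF2BP2 gave 9 higher and 11 lower, 20 in all, which is 7.27% of the 275 beside 9% of all tested (7.76% higher, 1.24% lower). Of the 62 miRNAs called between siIGF2BP1 and siIGF2BP3, 9 were also called here in the same direction (14.5% of the 62 and 45% of the 20) and 5 in the opposite direction. The 9 were the rises of miR-27b-3p, miR-23b-3p, miR-148a-3p, miR-3609, miR-181d-5p, miR-27b-5p and miR-181c-5p and the falls of miR-196b-5p and miR-186-5p. The 5 were miR-183-5p, miR-146a-5p, miR-199b-5p, miR-181a-2-3p and miR-424-3p. The calls of miR-199b-5p and miR-186-5p between siIGF2BP1 and siIGF2BP3 were each lost when single libraries were left out, the former without any 1 of the 5 (adjusted p = 0.0626 to 0.254) and the latter without any but siIGF2BP3 replicate 1 (adjusted p = 0.0900 to 0.180). For 27 of the 62 the sign was the same in both contrasts. Over the 275 miRNAs, which share libraries and depth, Pearson's r between the 2 contrasts was 0.28, given as a description.

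**Figure D4:**
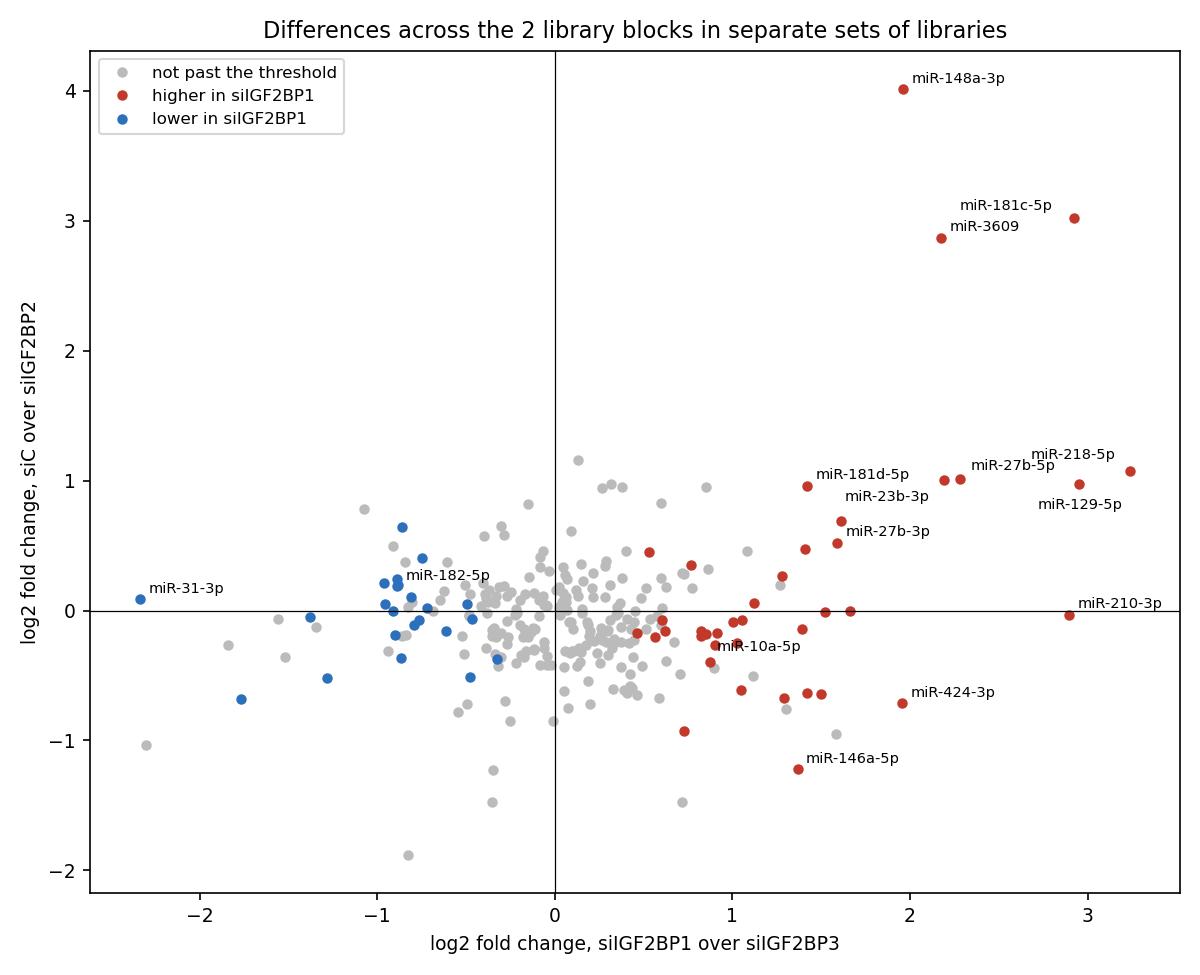
Log2 fold change of siC over siIGF2BP2 (vertical axis) against that of siIGF2BP1 over siIGF2BP3 (horizontal axis) for 275 miRNAs, 2 contrasts that cross the same library blocks with separate libraries. miR-148a-3p (1.96 and 4.01), miR-181c-5p (2.92 and 3.02) and miR-3609 (2.18 and 2.87) lie high on both axes, miR-210-3p (2.90 and -0.03) and miR-31-3p (-2.34 and 0.09) lie near 0 on the vertical axis, and miR-146a-5p (1.37 and -1.22) has opposite signs.

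miR-148a-3p, a repressor of DNA methyltransferase mRNAs, shows how a rise in this comparison can stand beside a fall in another. It had 58.6 and 136 normalised reads in siIGF2BP1 and 11.97, 26.0 and 34.5 in siIGF2BP3, but 350 and 441 in siC and 21.2, 26.7 and 22.4 in siIGF2BP2. Against siIGF2BP3 it was higher in siIGF2BP1 (1.96 ± 0.41, adjusted p = 0.00468), and against siC, in its own block, it was lower (-2.12, adjusted p = 0.0263). siC over siIGF2BP2 was 4.01 (adjusted p = 2.41e-05), and the double difference of -2.05 did not pass (adjusted p = 0.0835). The call against siIGF2BP3 was lost without siIGF2BP1 replicate 2 (adjusted p = 0.157) and in a fit to the 5 libraries alone (adjusted p = 0.129). miR-3609, at 92.4 and 42.3 against 19.96, 15.4 and 7.14, gave 2.18 (adjusted p = 0.00967), beside 2.87 for siC over siIGF2BP2 and a double difference of -0.70, and it lost its call without siIGF2BP1 replicate 1 (adjusted p = 0.207). miR-196b-5p, a HOX cluster miRNA, had 345 and 317 against 463, 470 and 451, with 322 and 355 in siC and 472 to 491 in siIGF2BP2. Its -0.48 (adjusted p = 0.0193) stood beside -0.52 for siC over siIGF2BP2 and a double difference of 0.04, and its call was lost without siIGF2BP1 replicate 2 (adjusted p = 0.0871).

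The place of the other 2 groups was read from their mean log2 levels for each of the 62 miRNAs. For 27 of them (19 rises, 8 falls) siC and siIGF2BP2 were both nearer to siIGF2BP3, so that siIGF2BP1 was the group apart, as for miR-424-5p and miR-210-3p. For 10 (5 rises, 5 falls) both were nearer to siIGF2BP1, as for miR-181a-5p and miR-31-5p. For 14 (9 rises, 5 falls) siC was nearer to siIGF2BP1 and siIGF2BP2 nearer to siIGF2BP3, as for miR-181c-5p and miR-196b-5p. Each was then nearer to the group of its own block. For the remaining 11 (6 rises, 5 falls) each was nearer to the group of the other block.

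The double difference called 34 of the 275 miRNAs, 24 higher and 10 lower, which is 12.4% beside 4.27% of all tested (3.04% higher, 1.24% lower). Within blocks, siIGF2BP1 against siC called 20 (17 higher, 3 lower, beside 2.47% of all tested, 2.14% higher and 0.337% lower) and siIGF2BP3 against siIGF2BP2 called 25 (11 higher, 14 lower, beside 3.15%, 1.46% higher and 1.69% lower). Among the miRNAs called in it, the largest double differences were those of miR-210-3p (2.93), miR-424-3p (2.67), miR-146a-5p (2.59), miR-31-3p (-2.42), miR-1275 (2.19), miR-218-5p (2.17) and miR-181a-2-3p (2.14). miR-1275 (adjusted p = 0.0451) was called in it and did not pass between siIGF2BP1 and siIGF2BP3 (0.72, adjusted p = 0.299), since its siC values were low, at 4.95 and 13.3 normalised reads against 22.4 to 26.9 in siIGF2BP2. The double difference rests on all 4 groups, with siC at 2 libraries, and without siC library C2 it called 17, and without siIGF2BP1 replicate 1 or 2 it called 20 and 19. It shares its libraries with the comparison of siIGF2BP1 and siIGF2BP3 and is no independent evidence for it.

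**Figure D5:**
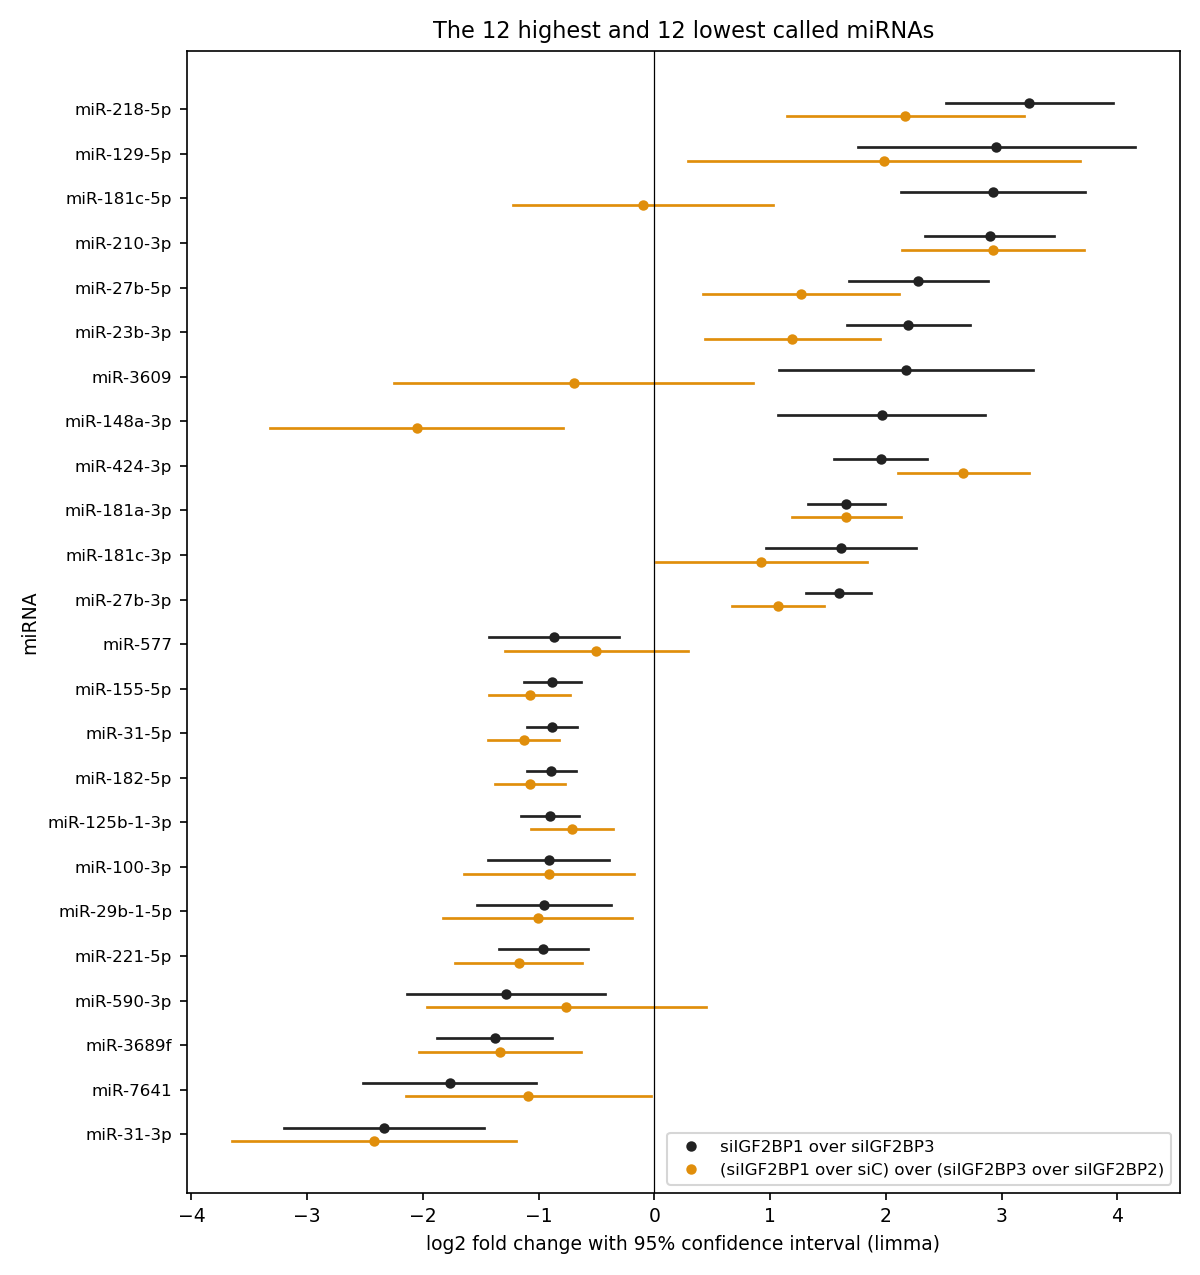
Log2 fold changes with 95% confidence intervals (horizontal axis) for the 12 highest and 12 lowest called miRNAs, black for siIGF2BP1 over siIGF2BP3 and orange for the double difference. Both values lie close together for miR-210-3p (2.90 and 2.93) and miR-31-3p (-2.34 and -2.42), the double difference is near 0 for miR-181c-5p (-0.10), and it has the opposite sign for miR-148a-3p (-2.05).

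The 2 arms of a hairpin moved together where both were called. Of 61 hairpins with both arms among the 275, 6 had both called and all 6 in 1 direction (miR-31 and miR-221 lower, miR-181a, miR-181c, miR-27b and miR-424 higher), and 14 had 1 arm called. Across the 61 hairpins Pearson's r between the log2 fold changes of the arms was 0.74, a description across precursors that share libraries. The ratio of the arms was called for 0 of 61 hairpins (limma, 0% called, 10 with an unadjusted p under 0.05). The lowest p-value was that of miR-31, whose 5p over 3p ratio was higher in siIGF2BP1 by 1.45 ± 0.38 (log2, adjusted p = 0.09), with the 3p arm at 8.84 to 87.8 normalised reads. The count of hairpins called rose to 4 without siIGF2BP3 replicate 3.

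By seed, 24 seeds were shared by 2 or more of the 238 miRNAs with a sequence. Calls in both directions were held by 0 of the 24, but most of them had at most 1 called miRNA and could not hold both. The miR-181 seed ACAUUCA (4 of 4 higher) and the seed GCUACAU of miR-221-3p and miR-222-3p (2 of 2 lower) had every measured member called, whereas the seed AGCAGCA of miR-424-5p had 1 of 4 and the let-7 seed GAGGUAG 2 of 9. The median GC content of the mature sequences was 47.8% for the called rises, 41.7% for the called falls and 50% for the rest, and Pearson's r of GC content with the log2 fold change was 0.12 over the 238, given as a description.

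The rule left out miRNAs whose mean reached 10 in only 1 of both groups, whether or not they were read in the other. In total 65 miRNAs reached a mean of 10 in siIGF2BP1 alone, 22 of them in the 14q32 list and 31 with at most 3 reads in the whole of siIGF2BP3, and 11 reached it in siIGF2BP3 alone. miR-143-3p, at 579 and 1548 normalised reads against 3.99, 3.55 and 8.32, and miR-127-3p, at 463 and 1113 against 5.99, 3.55 and 7.14, had the highest siIGF2BP1 means of the former. Just inside the rule were miR-185-3p (means 10.2 and 10.0), miR-4788 (32.1 and 10.1) and miR-937-3p (10.1 and 19.3), and just outside were miR-4661-5p (9.71 and 9.39), miR-181b-3p (13.0 and 9.80) and miR-140-5p (9.91 and 17.3). At the low end of the 275 a library held as few as 2 reads of a miRNA among the 5 compared and 1 among all 10, so small differences there were not detectable at this depth.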

How the data were processed

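Small RNA libraries of total RNA from ES-2 cells were sequenced with a TruSeq small RNA kit, per the labels' protocols. Bowtie2 2.2.4, cutadapt 1.6, edgeR 3.12, featureCounts 1.4.6 and build hg19 appear in the submitters' processing notes; settings, scaling method and the handling of reads with several placements do not. The deposited values are a normalised signal made by the authors: within a tolerance of 0.01 reads, 100% of the values in each library were whole multiples of 1 read, worth 0.803 to 2.00. The 2794 rows were summed to 2576 miRNAs, and 0 sample columns were unused. The 2 siC columns could not be tied to single samples and are called C2 and C3.

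An edgeR test had been planned for counts; since the values are normalised, limma 3.58.1 (R 4.3.3, intensity trend) was used on log2(value + 1), which understates the changes of low miRNAs. It was fitted to all 10 libraries and the 889 miRNAs that reached a value of 1 in 2 or more libraries, with Benjamini-Hochberg adjustment at 0.05. Every adjusted p comes from such a fit unless stated, and intervals are 95%. Shares were compared by exact permutation (scipy 1.17.1). On the recovered reads, edgeR 4.0.16 (quasi-likelihood, TMM) called 124 of 335 miRNAs that passed its expression filter, 89 of them among the 275 (40 higher, 49 lower), and DESeq2 1.42.0 was an alternative. The limma and edgeR fits were also run on simulated reads that held no difference between library blocks. Such reads cannot show how the calls fare where blocks differ, and nothing above rests on them. DESeq2 was not run on them.

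The miRNAs, the 35 lists and the tests were chosen with earlier results of these data known. Named miRNAs were drawn from the 12 largest called rises and falls with their other arms, the 10 most abundant, and up to 4 per list. Up to 6 hairpins called for arm ratio and up to 8 of the largest double differences were added. Not all miRNAs that this rule picks are named or given with values. miR-143-3p, miR-127-3p, miR-15b-3p, miR-152-5p, miR-193b-3p, miR-345-5p, miR-503-5p, miR-542-3p, miR-615-3p, let-7d-5p, let-7e-5p and the miRNAs named as shared or opposite between contrasts, as passing every setting, or as near the rule's limit were named after their values were seen. Alternatives covered scaling, pseudocounts, filters, thresholds, tools, left-out libraries and a replicate block. Those without an siC or siIGF2BP2 library, and without the other-tissue lists, were chosen after seeing the data. Hosts are from GENCODE v29.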

Additional observations from a re-analysis of the deposited data

How the results depend on the processing

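Between siIGF2BP1 and siIGF2BP3, limma called 62 of the 275 miRNAs (39 higher, 23 lower). Upper-quartile rescaling gave 150 (14 higher, 136 lower), a threshold of 0.01 gave 41 (12 lower), and a minimum mean of 50 gave 41 (24 higher), with fewer miRNAs considered (167). Falls numbered 49 by edgeR with TMM, 46 by edgeR with median of ratios, 46 by DESeq2 and 14 in a fit to the 5 libraries alone. Leaving out 1 library gave 39 to 64 calls (26 to 42 higher, 13 to 25 lower), with 39 and 40 without siIGF2BP1 replicates 1 and 2. With the replicate number as a block over the 8 knockdown libraries, 42 were called (30 higher, 12 lower), against 60 without the block. Deviations from the group mean correlated at 0.01 and 0.12 for same-numbered libraries of both groups and at -0.12 to 0.09 for the others. With 2 siIGF2BP1 libraries, the deviations of 1 are the other's with the sign turned. These correlations therefore cannot show whether equal numbers mark shared handling.

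For siC against siIGF2BP2 (20 called, 9 higher, 11 lower), TMM rescaling gave 16 higher and 4 lower, median-of-ratios 7 lower, upper-quartile 91 (3 higher, 88 lower) and a threshold of 0.01 gave 5 (3 higher, 2 lower). Leaving out 1 library gave 6 to 12 (2 to 6 higher, 3 to 10 lower). For the double difference (34 called), upper-quartile rescaling gave 22 (10 higher) and a threshold of 0.01 gave 19 (15 higher, 4 lower). Leaving out 1 library gave 17 to 37 (13 to 24 higher, 4 to 13 lower). Hairpins called for arm ratio ranged from 0 to 4.

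Differences in share, in percentage points, as each of the 5 libraries was left out ran from -2.57 to 0.502 for let-7 (-1.03 with all, 0.502 without siIGF2BP1 replicate 2 and 0.0548 without siIGF2BP3 replicate 1), from -2.49 to -0.0969 for the 10 most abundant, from -0.548 to -0.290 for the 275, from 1.15 to 1.95 for the miR-181 family and from -4.98 to -4.06 for miR-221 with miR-222.

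After upper-quartile rescaling the log2 fold change turned below 0 for these named miRNAs: let-7a-5p (-0.79), let-7d-5p (-0.05), let-7e-5p (-0.19), let-7g-5p (-0.75), let-7i-5p (-0.79), miR-10b-5p (-0.50), miR-125a-5p (-0.25), miR-151a-5p (-0.35), miR-191-5p (-0.58), miR-199a-5p (-0.68), miR-199b-5p (-0.071), miR-22-3p (-0.55), miR-25-3p (-0.76), miR-26a-5p (-0.21), miR-27a-3p (-0.66), miR-28-3p (-0.71), miR-28-5p (-0.71), miR-30c-5p (-0.66), miR-30e-5p (-0.62) and miR-92b-3p (-0.64). This rescaling divides all values of a library by 1 factor, so these shifts are not separate results. Why the upper quartiles differ between the groups was not tested. Of all recomputed values, 2519 were labelled as the same, 128 as stronger, 105 as weaker, 58 as moved and 20 as reversed. The last label is not a count of all changes of sign, and values labelled as the same can include such changes. With 2 libraries in siIGF2BP1, leaving out 1 rests on a single library assumed to vary like the other groups.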
